A study of Zygosaccharomyces bailii with 18 samples.

Results

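The early response of Zygosaccharomyces bailii to copper was compared between the Zbhaa1∆ deletion mutant and its parental strain IST302 after 1 h with 0.08 mM CuSO4 at pH 4.0. Z. bailii is a food spoilage yeast, and ZbHaa1 is its single counterpart of the S. cerevisiae transcription factors Haa1 and Cup2. Every row of the deposited table for this comparison was taken. It holds 1301 ORFs, 25.3% of the 5141 annotated protein-coding ORFs, each past a fold change of 1.5 in either direction at an FDR under 0.05. Both groups had 3 libraries from independent experiments, so the comparison uses 6 of the 18 libraries of the series. The other 4 groups were the same strains unstressed, or after 1 h with 140 mM acetic acid at the same pH. All cultures grew in mineral medium with glucose, and both strains are prototrophic. The mutant is 1 deletion line, and copper-treated cells of both strains formed aggregates in the study.

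Copper is an enzyme cofactor that becomes toxic in excess, when it promotes the formation of reactive oxygen species and displaces other metals from proteins. In S. cerevisiae, Cup2 binds copper and switches on the genes of metallothioneins, small cysteine-rich proteins that hold the metal, and Haa1 activates genes needed under weak acid stress. Yeasts under proteotoxic stress commonly raise the mRNAs of chaperones and the proteasome and lower those of ribosomal proteins and ribosome assembly factors. ORFs are named below by the S. cerevisiae homologue that the study assigned to them, and the roles given are those known in S. cerevisiae.

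The deposited values are the log2 fold change of the mutant against the parental strain, the average log2 CPM (counts relative to the scaled library total) over both groups, and the FDR of the authors' edgeR comparison. A level for each strain was computed from the fold change and the average. Values of single libraries were not analysed here, so each level is a group value without a replicate error. The FDR is an adjusted p-value and does not measure the spread between libraries, which is not given here. Each library read one tag near the 3′ end of a transcript, so levels of different genes can be compared without a division by length. The values are relative to the scaled total of each library, so less of an mRNA per cell, a smaller share of it in the library and fewer cells that carry it cannot be told apart. ZbHAA1 itself (ZBIST_2620) was not listed in this table or in the other strain comparisons, so the deleted gene gives no check of the mutant libraries. The captions of the study's gene tables set the mutant in stress against unstressed cells. Its selection of ZbHaa1-dependent genes, in contrast, is described as a comparison of both strains under 1 stress. The sample labels also tie the rows to both strains in the same condition. The reference group in copper was therefore checked through 105 genes that were also listed for the parental strain in copper against unstressed cells. The reference level in the strain comparison minus the parental level in copper lay between -0.05 and 0.15 in log2 units, at a median of 0.03 with an SD of 0.03. Set against unstressed parental cells instead, it had a median of 0.73 and an SD of 1.32. Against the unstressed mutant, with only 9 shared genes, these values were 0.86 and 1.67. The labels were followed, and the acetic acid rows were not checked in this way.

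In the mutant, 663 genes were higher and 638 were lower than in the parental strain in copper, 12.9% and 12.4% of the annotated ORFs. The lower genes had the larger median change. The median change in log2 units was 0.88 for higher and -1.03 for lower genes, and 267 and 339 genes, respectively, differed by more than 2-fold. By more than 4-fold, 24 genes were higher and 31 were lower. The higher genes had a median level of 5.69 log2 CPM in the parental strain and 6.61 in the mutant. For the lower genes these medians were 6.61 and 5.55. Averaged over both strains, the medians of both sets were alike, at 6.22 and 6.17 log2 CPM. Summed over all lower genes, the level was 517637 CPM in the parental strain and 227640 CPM in the mutant, while the sum over the higher genes was 119271 and 275667 CPM. The genes nearest to the threshold were AVT7 at 0.585 and TWF1 at 0.586 among the higher genes, and POL30 and ZBIST_2896 at -0.586 among the lower ones, with FDR values of 0.0409 to 0.0487. A homologue was named for 1067 of the 1301 ORFs, and 784 ORFs belonged to at least 1 of 39 gene lists. The members of a list are ORFs that the study named, each listed in at least 1 of its comparisons. Counts of listed members therefore do not extend to genes of the same kind that the study did not name. The share of named ORFs that are listed is high by construction. A list median covers only members past the fold change threshold, so its size partly reflects that threshold. The respiratory chain list, for example, held 33 gene symbols but only 10 named ORFs. Among all listed genes, 51.0% were higher, and each list is described beside that share.

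**Figure D1:**
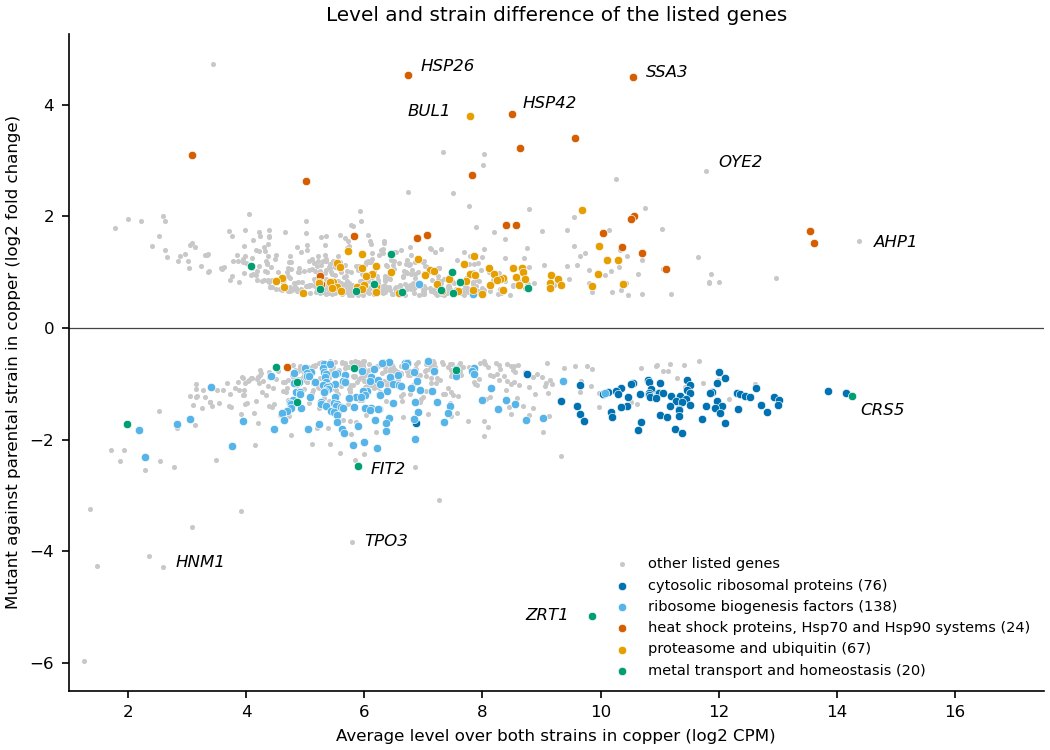
Each point is 1 of the 1301 listed genes, with its average level in copper over both strains (log2 CPM) on the horizontal axis and the log2 fold change of the mutant against the parental strain on the vertical axis. Coloured points are members of 5 groups of lists. Ribosomal proteins lie below 0 at high levels, heat shock proteins reach 4.54, and the metal genes include ZRT1 at -5.16. The empty band around 0 is the fold change threshold.

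Of the genes for metal transport and homeostasis, those with the largest differences were lower in the mutant. The zinc transporter gene ZRT1 (ZBIST_4639) had the lowest FDR of the whole table, 1e-09, with a log2 fold change of -5.16. Its level was 1794 CPM in the parental strain and 50.3 CPM in the mutant, 10.81 and 5.65 log2 CPM. Had the deposited average been a mean of log2 values, these levels would be 12.43 and 7.27 log2 CPM, with the same fold change. Another ORF that the study names ZRT1 was not listed between the strains. ZAP1, the zinc-responsive activator of ZRT1 in S. cerevisiae, was also lower, by a log2 fold change of -0.97. The metallothionein gene CRS5 (ZBIST_3713) had the highest parental level of any listed gene. It fell from 27238 to 11687 CPM, a log2 fold change of -1.22 (FDR 0.00524), and still stood among the most abundant listed mRNAs of the mutant.

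Iron uptake genes were found on both sides. FIT2, a cell wall protein that retains siderophore iron, had a log2 fold change of -2.48, and the siderophore transporter gene SIT1 (ZBIST_3876) one of -1.73. The arsenite antiporter gene ARR3 was at -1.33 and the vacuolar calcium exchanger gene VCX1 at -0.75. Higher in the mutant were the manganese transporter gene SMF2 at 0.99, CCC2, which pumps copper into the secretory pathway, at 0.78, and the multicopper oxidase gene FET5 at 0.64. YAP5, an activator of the response to high iron, was at 1.12, and the iron-sulphur assembly genes NBP35 and ISA2 were at 0.82 and 0.63. The remaining higher genes were CTH1 (0.68), FRE8 (0.69) and ATX2 (0.67). FRE3, a reductase for siderophore iron, and MNR2, a magnesium transporter, each had an ORF higher and an ORF lower. Of 31 named ORFs of this list, 11 were higher and 9 lower, while 11 were not listed (median log2 fold change of the listed members 0.64). The median was 0.72 over the higher members and -1.22 over the lower members. At a fold change above 2 the direction of most members turned, with 2 higher and 5 lower. FET3, SOD1 and ARN2, listed higher in the parental strain in copper at 1.23, 1.01 and, for the ARN2 ORFs, 1.02 and 0.83, were not listed between the strains.

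The copper comparison of the parental strain uses the same 3 parental libraries, so its values are given only side by side. It listed 190 genes, 3.70% of the annotated ORFs. ZRT1 stood at 8.11 log2 CPM in unstressed parental cells, at 10.81 in parental cells with copper and at 5.65 in the mutant with copper. CRS5 stood at 11.91, 14.73 and 13.51 log2 CPM in the same order. Its neighbour ZBIST_3714, with no named homologue, stood at -0.05, 4.23 and 1.87, and ZBIST_1696, also unnamed, at 3.56, 8.10 and 5.01. For these genes the mutant level in copper lay between both parental levels, except for ZRT1, where it lay below them. TMT1, a methyltransferase gene, stood at 2.23, 4.42 and 3.31 log2 CPM. Lower than in unstressed parental cells were also the mutant levels of the mitochondrial alcohol dehydrogenase gene ADH3 (8.21, 9.06 and 7.51), the cytosolic malate dehydrogenase gene MDH2 (7.29, 7.97 and 6.47) and the glyoxylate reductase gene GOR1 (10.20, 11.03 and 9.71). The S-phase cyclin gene CLB5 (4.91, 5.88 and 4.78), the glutamate dehydrogenase gene GDH3 (10.61, 11.47 and 10.70), the succinate-fumarate carrier gene SFC1 (6.49, 7.16 and 6.50) and FRE3 ZBIST_4165 (4.01, 4.82 and 4.12) had mutant levels near those in unstressed parental cells. The unnamed ZBIST_2835, ZBIST_4824 and ZBIST_3873 completed the genes that were lower in the mutant and listed higher in parental copper, with strain differences of -1.36, -0.89 and -0.60. The opposite order was seen for ZBIST_4636, unnamed, at 5.13, 9.47 and 10.86 log2 CPM, and for FRE3 ZBIST_2107 at 4.01, 5.64 and 6.97. Heat shock genes stood in this order too, with SSA3 at 5.60, 6.99 and 11.49, HSP42 at 4.61, 5.57 and 9.40, and HSP104 at 6.20, 7.04 and 10.44. So did BUL1, at 3.98, 4.90 and 8.69. SGA1, TPO1 ZBIST_1684, YMR244W and ZBIST_1699 were listed lower in parental copper, at -0.83, -0.69, -1.27 and -1.38. Their strain differences in copper were 0.61, 0.97, 1.72 and 1.27. In the same order of groups, SGA1 stood at 7.48, 6.67 and 7.28 log2 CPM, and TPO1 ZBIST_1684 at 6.07, 5.39 and 6.36. YMR244W stood at 4.85, 3.56 and 5.28, and ZBIST_1699 at 3.28, 1.90 and 3.17. Each mutant level thus lay nearer to the unstressed parental level than to the parental level in copper. Both differences use the same parental copper libraries, so their opposite signs are not independent.

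**Figure D2:**
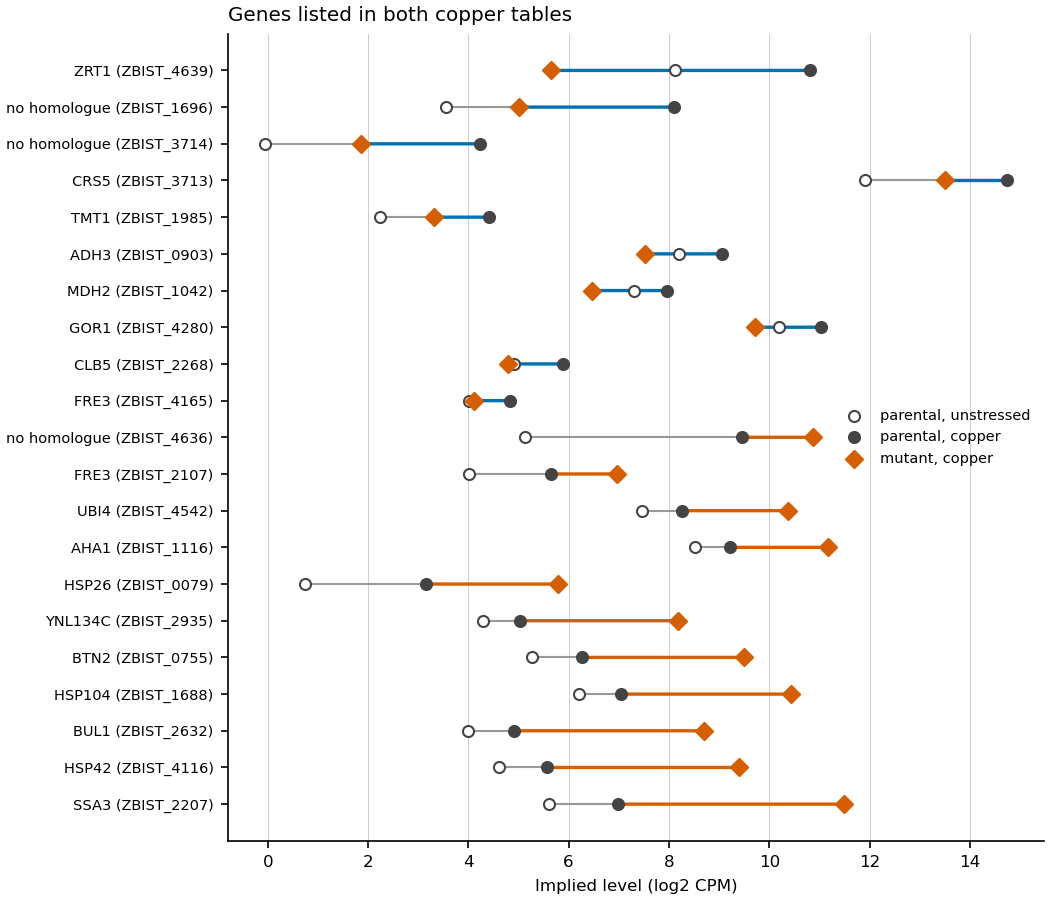
Levels (log2 CPM) of 21 genes listed in both copper tables, with open circles for unstressed parental cells, filled circles for parental cells in copper and diamonds for the mutant in copper. The upper 10 genes have the diamond to the left of the filled circle, with ZRT1 at 5.65 against 10.81, and the lower 11 have it to the right, with SSA3 at 11.49 against 6.99. Points are group values without replicate error.

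Many of the largest increases among named genes were those of chaperones. Of the heat shock proteins that control protein aggregation, 7 of 8 named ORFs were higher and 1 was lower (median 3.17). The small heat shock protein gene HSP42 (ZBIST_4116) rose from 47.4 CPM in the parental strain to 676 CPM in the mutant, a log2 fold change of 3.83 (FDR 4.28e-08). HSP104, whose product pulls proteins out of aggregates, rose from 132 to 1389 CPM (3.40, FDR 5.72e-08), and the sorting factor gene BTN2 from 76.7 to 721 CPM (3.23). HSP12, a membrane-protecting protein, rose from 606 to 2418 CPM (2.00). HSP26, a small heat shock protein that binds unfolded proteins, was the name of 3 listed ORFs, and all were higher. ZBIST_3442 rose from 8.84 to 205 CPM (4.54), ZBIST_0079 from 8.97 to 55.5 CPM (2.63) and ZBIST_3334 from 1.78 to 15.3 CPM (3.10). The FDR of ZBIST_3442 was 0.0121, far above the 2.25e-06 of ZBIST_0079 despite its larger fold change. The study names a further HSP26 homologue, ZBIST_4487, which was not listed. HSP31, encoding a glyoxalase with chaperone activity, was the lower member, at -0.69.

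The Hsp70 system of the cytosol, which folds new and damaged proteins with the help of J-proteins, was higher in all 8 of its named ORFs (median 1.59). SSA3, the stress-induced Hsp70 gene, rose from 127 to 2875 CPM (4.50, FDR 7.15e-06). SSA1 started from a higher level, 6490 CPM, and rose to 18631 CPM (1.52). The J-protein genes SIS1 (2.73), APJ1 (1.65), YDJ1 (1.45) and XDJ1 (0.93) and the nucleotide exchange factor genes FES1 (1.67) and SSE1 (1.06) were higher as well. With HSP82, the Hsp90 gene, at 1.74, all 8 named ORFs of the Hsp90 system were also higher (median 1.72). Its co-chaperone genes ranged from SGT1 at 0.79 and SBA1 at 1.35 through CDC37 (1.61), HCH1 (1.70), STI1 (1.84) and CPR6 (1.85) to AHA1 at 1.96. The 8 chaperones of mitochondria and the endoplasmic reticulum were higher too, but with smaller differences except for HSP78, the mitochondrial relative of Hsp104, at 3.12. These were ERO1 (1.75), KAR2 (1.21), MDJ1 (1.15), SSC1 (1.02), JAC1 (0.81), HSP10 (0.80) and HSP60 (0.60).

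Chaperones that serve newly made proteins differed in direction among themselves. Subunits of the CCT chaperonin, which folds actin and tubulin, were higher (CCT6 0.98, TCP1 0.73, CCT2 0.72 and CCT3 0.63), and the prefoldin subunit gene PAC10 was lower at -0.68. The ribosome-associated chaperone genes SSB2 (-1.07), SSZ1 (-0.80) and ZUO1 (-0.75) were all lower. SSB2 encodes an Hsp70, and its level fell from 3734 to 1781 CPM while that of SSA3 rose.

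The proteasome degrades proteins that carry a ubiquitin chain, and most of its named genes were higher. Of 14 named ORFs of its core particle, 11 were higher, 3 were not listed and 0 were lower (median 0.86). Their differences were narrow, from PRE4 at 0.72 through PRE10 (0.74), SCL1 (0.76), PRE3 (0.78), PRE6 (0.83), PUP2 (0.86), PRE5 (0.87), PUP3 (0.88), PRE2 (0.96) and PRE8 (0.97) to PRE1 at 1.01. PRE7, PRE9 and PUP1, the unlisted core subunits, were listed higher in parental copper, at 0.83, 0.70 and 0.90. Of 19 ORFs of the regulatory particle, which recognises and unfolds substrates, 18 were higher (median 0.97), led by the deubiquitinase gene RPN11 at 1.28, the ATPase gene RPT5 at 1.22 and RPN8 at 1.14. SEM1 was not listed. Assembly factors and activators included UBP6 (1.47), ECM29 (1.24), UMP1 (0.95), NAS6 (0.81), BLM10 (0.78) and STS1 (0.64). RPN4, the S. cerevisiae activator of proteasome genes, was at 0.63 with an FDR of 0.0492, close to the limit of both thresholds.

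All 31 named ORFs of ubiquitin conjugation and removal were higher (median 0.84), although their sizes were uneven. BUL1 (ZBIST_2632), an adaptor of the ubiquitin ligase Rsp5 that acts on plasma membrane transporters, had the lowest FDR among the higher genes, 6.06e-09. It rose from 29.9 to 414 CPM (3.79). The polyubiquitin gene UBI4 rose from 308 to 1333 CPM (2.12, FDR 1.56e-06). The next largest differences were those of the conjugating enzyme gene UBC13 (1.39), the deubiquitinase gene OTU1 (1.32) and the shuttle factor genes DSK2 (1.21) and DDI1 (1.16). CDC34 (1.12), CDC53 (1.09), UBC8 (1.07) and UBC7 (0.99) followed. The segregase gene CDC48, which extracts ubiquitinated proteins from membranes and complexes, and all 6 listed partners were higher. They were UBX5 (1.37), NPL4 (1.30), DOA1 (1.22), UFD1 (1.01), SHP1 (0.995) and DER1 (0.69), with CDC48 itself at 0.97.

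Redox genes were higher with few exceptions. The thiol peroxidase gene AHP1 (ZBIST_1476) rose from 10736 to 31763 CPM (1.56, FDR 7.63e-04) and had the highest mutant level of any listed gene. Of 17 named ORFs of thiol redox and oxidant detoxification, 14 were higher and 0 lower, while 3 were not listed (median 0.88). FRM2 (1.42), the cytochrome c peroxidase gene CCP1 (1.40), the oxidative stress activator gene YAP1 (1.31), SRX1 (1.18), GTT1 (1.13), the catalase gene CTT1 (0.94), HYR1 (0.82), GRX2 (0.80) and GSH1 (0.79), which starts glutathione synthesis, were the next largest. A list of old yellow enzymes, other reductases, many of which act on carbonyl compounds, and genes of NADPH supply was higher in 23 of 25 named ORFs, with GRE2 lower at -0.89 and 1 ORF not listed (median 1.19). All 4 ORFs named OYE2 were higher. ZBIST_0711 rose from 885 to 6186 CPM (2.81, FDR 3.12e-07), ZBIST_4078 from 57.6 to 306 CPM (2.41), ZBIST_0577 by 1.74 and ZBIST_0712 by 1.30 on the log2 scale. YNL134C rose from 32.5 to 289 CPM (3.15), and YML131W (1.75), GRE3 (1.41) and ZWF1 (1.29), the gene of the first enzyme of the pentose phosphate pathway and a main source of NADPH, were higher as well.

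Storage carbohydrate genes were higher in 10 of 11 named ORFs (median 0.89), both for synthesis (the glycogen branching gene GLC3 1.20, the glycogen synthase gene GSY1 0.63, UGP1 0.77, TPS2 0.59 and TSL1 0.61) and for breakdown (the trehalase gene NTH2 1.42, GDB1 1.14 and SGA1 0.61). The phosphatase subunit genes GAC1 (1.49) and GIP2 (1.005), at parental levels of 4.37 and 6.79 CPM, were among them. In glycolysis and fermentation, 8 of 11 named ORFs were higher and 1 was lower (median 0.90). The higher members were PDC1 ZBIST_5063 (1.43), PGK1 (1.26), both ADH1 ORFs (1.005 and 0.81), TPI1 (0.96), ENO1 (0.90), FBA1 (0.82) and GPM1 (0.68). The lower member was ADH3, at -1.55.

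Genes of protein synthesis made up most of the decrease in level. All 76 named ORFs of cytosolic ribosomal proteins were lower, within a narrow range from -0.80 for RPS3 to -1.88 for RPL27A (median -1.25). Their summed level was 345839 CPM in the parental strain and 143659 CPM in the mutant, a ratio of 0.415. The largest differences were found for RPL27A, RPL12A (-1.83), RPS20 (-1.81), RPL30 (-1.71), RPL9B ZBIST_4179 (-1.70), RPL4A (-1.69), RPL3 (-1.66) and RPP1B (-1.63), which belong to both subunits. RPL28, named here for its level after its value was seen, was the most abundant listed ribosomal protein mRNA and fell from 25375 to 11267 CPM (-1.17). IFH1, a coactivator of ribosomal protein genes, was lower at -1.25.

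Ribosome assembly genes were lower in 136 of 141 named ORFs, with 2 higher and 3 not listed (median -1.18). Their levels were far below those of the ribosomal proteins, with medians of 6.34 log2 CPM in the parental strain and 5.08 in the mutant. MAK11 fell from 121 to 27.4 CPM (-2.14, FDR 1.78e-06), RPF2 was at -2.10, MAK16 at -2.05 and RRB1, a chaperone of Rpl3, at -1.99, and these act mainly on the large subunit. POP3 (-2.31) and RPF1 (-2.12) also had large differences, from low parental levels of 8.13 and 22.0 CPM. ENP2 (-1.89), BUD20 (-1.84), RSA1 (-1.83) and ECM1 (-1.82) followed. The higher members were RKM1, a methyltransferase of a ribosomal protein, at 0.79 and SQT1, a chaperone of Rpl10, at 0.61.

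Of 18 named ORFs of RNA polymerases I and III, which transcribe ribosomal RNA and tRNA, 16 were lower and 2 were higher (median -1.06). RPC25 (-2.08), RPA135 (-1.30), RPC31 (-1.30), RPA12 (-1.24), RPC37 (-1.22), RPA190 (-1.18), RPA34 (-1.14) and RPA43 (-1.10) were the largest, and the higher members were TFC1 (0.87) and 1 of the RET1 ORFs (0.72). Of 16 named ORFs of RNA polymerase II, its general factors and the mediator, 13 were higher and 3 were lower (median 0.72). SUA7, encoding TFIIB, was at 1.44, ROX3 at 1.11, SSN3 at 1.03, MED1 at 0.97 and TAF4 at 0.96. The lower members were RPB4 (-1.09), RPB8 (-1.02) and RPB5 (-0.93), and the last pair encode subunits that all 3 polymerases share. The members named as higher are general factors and mediator subunits, and of the polymerase II subunits RPB3, named outside the rule after its value was seen, was higher at 0.66. The difference in direction between both lists was not tested.

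Translation factors were lower in 27 of 28 named ORFs (median -0.76), with smaller differences than the ribosomal proteins. SUP45, the termination factor, was at -1.34. HYP2, encoding eIF5A, fell from 8345 to 4158 CPM (-1.01), and DYS1, which starts the synthesis of the hypusine residue of eIF5A, was at -1.14. TIF4631 (-0.97), TIF11 (-0.96), RBG1 (-0.96) and the elongation factor gene EFT1 (-0.90) were lower too. Of 22 named ORFs for tRNA processing, 20 were lower and 2 were higher (median -0.86). The methyltransferase genes GCD10 (-1.70), TRM11 (-1.68) and TRM10 (-1.38) and the dihydrouridine synthase gene SMM1 (-1.58) had the largest decreases, and the higher members were KTI12 (0.78) and PUS5 (1.95), the latter from a parental level of only 1.65 CPM.

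**Figure D3:**
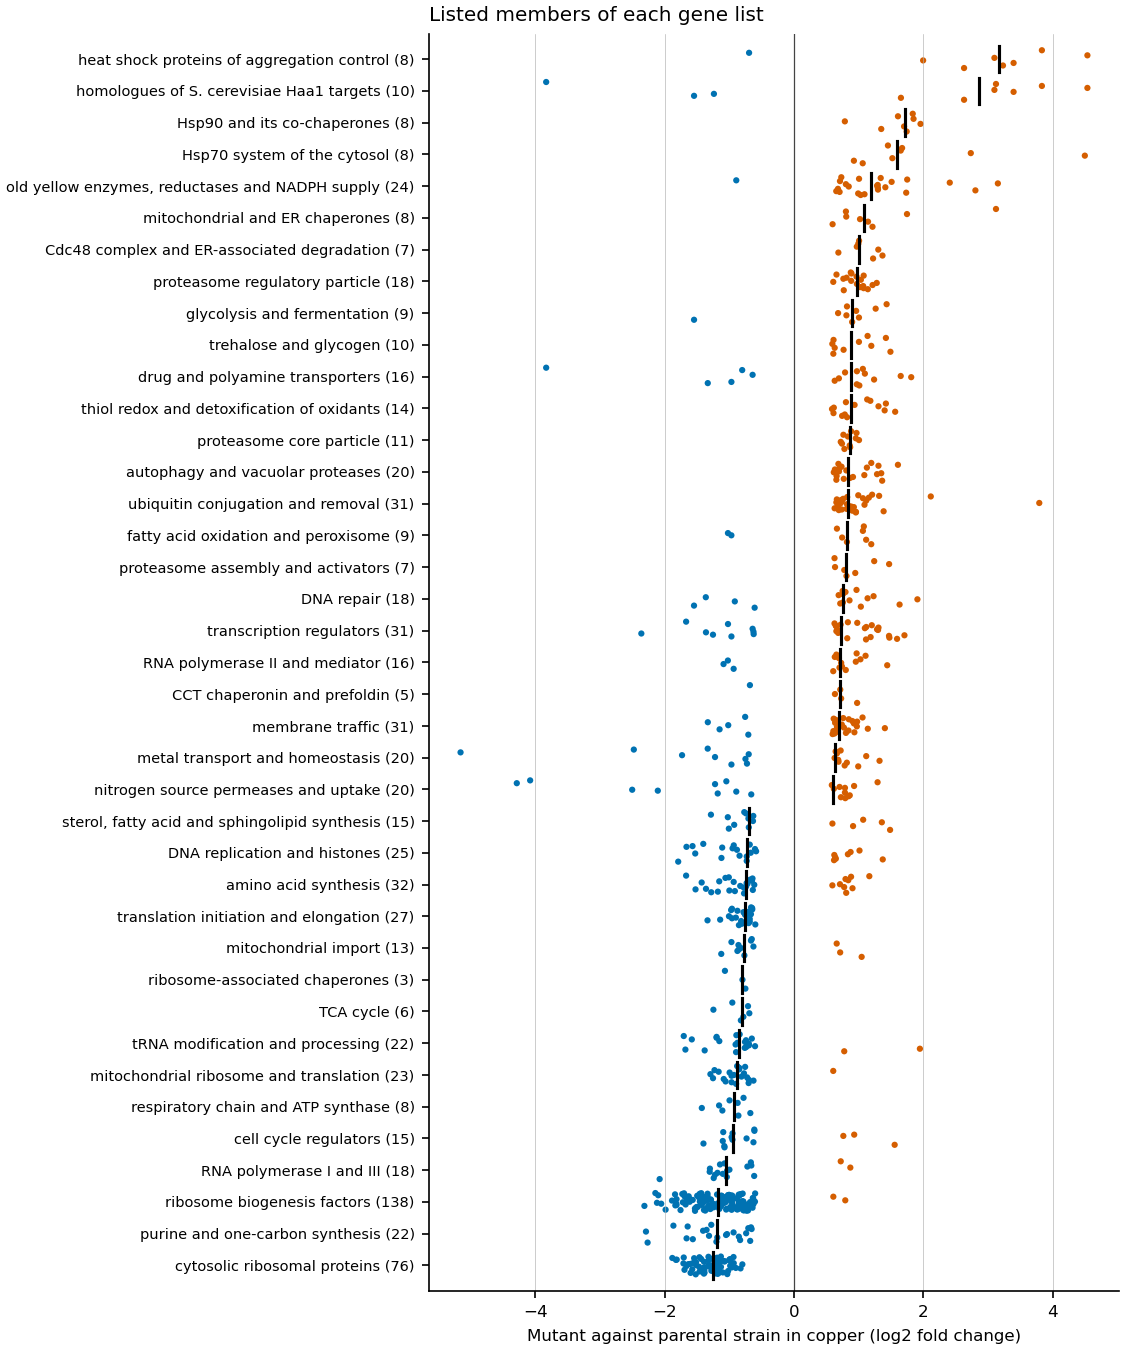
Log2 fold change of the mutant against the parental strain in copper for the listed members of 39 gene lists, with the number of listed members in brackets. Each point is 1 gene, orange when higher and blue when lower, and the black bar is the median over the listed members, from 3.17 for heat shock proteins to -1.25 for cytosolic ribosomal proteins. Genes with a fold change of 1.5 or less are not in the table.

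Mitochondrial genes were mostly lower, apart from the chaperones described above. Mitochondrial ribosome and translation genes were lower in 22 of 28 named ORFs, with IFM1 higher at 0.61 and 5 not listed (median -0.88), led by MRPS16 (-1.29), MRPL49 (-1.25), MSK1 (-1.23) and MRPL32 (-1.16). Of 13 named ORFs of protein import, 10 were lower and 3 were higher (median -0.77). The lower ones included the import motor genes PAM18 (-1.12) and TIM44 (-0.97) and the channel gene TOM40 (-0.82). ERV1 (1.05) and MIA40 (0.66), which together oxidise cysteines of imported proteins, and the processing peptidase gene MAS1 (0.71) were the higher ones. In the TCA cycle, 6 of 9 named ORFs were lower and 0 were higher: both ACO1 ORFs (-1.25 and -0.69), MDH1 (-0.95), SHH4 (-0.82), IDH2 (-0.78) and IDH1 (-0.71). In the respiratory chain and ATP synthase, 8 of 10 were lower and 0 were higher (median -0.93), namely COX23 (-1.43), COX9 (-1.16), COX20 (-1.11), ATP20 (-0.996), COX8 (-0.87), QCR9 (-0.86), ATP16 (-0.78) and COX12 (-0.67).

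All 22 named ORFs of purine and one-carbon synthesis were lower (median -1.19), and their summed level went from 7767 to 3250 CPM. IMD4 (ZBIST_3033), the rate-limiting enzyme of guanine nucleotide synthesis, fell from 1072 to 219 CPM (-2.29, FDR 2.50e-06). The glycine cleavage genes GCV2 (-2.26) and GCV1 (-1.56) and the serine hydroxymethyltransferase gene SHM2 (-1.86), which feed one-carbon units into the pathway, were lower too. ADE13 (-1.66), MTD1 (-1.64), ADE5,7 (-1.41), GUK1 (-1.35), ADE4 (-1.31) and ADE1 (-1.28) completed the 10 largest. Amino acid synthesis was more mixed, with 23 of 35 named ORFs lower, 9 higher and 3 not listed (median -0.74). GCN4, the activator of amino acid synthesis genes, was at -1.67, and the branched-chain genes ILV3 (-1.52), ILV5 (-1.36) and LEU4 ZBIST_2892 (-1.43) had the next largest decreases. CPA1 (-1.28), YMC1 (-1.18), LYS9 (-1.16), SAM2 (-1.06) and MET5 (-1.01) followed. The higher members were both SAM4 ORFs (1.17 and 0.78), ARG7 (0.91), STR3 (0.88), ARG4 (0.84), MET8 (0.81), TRP5 (0.80), LEU4 ZBIST_2299 (0.71) and MET2 (0.59).

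Genes of chromosome duplication were mostly lower. Of 25 named ORFs for DNA replication and histones, 17 were lower and 8 were higher (median -0.73). The histone genes HTA2 (-1.66 and -1.12), HTB1 (-1.57), HHF2 (-0.93) and HHT2 (-0.68) were all lower, whereas HTZ1, the variant histone, was at 0.62. HHF2 and HHT2 were named outside the rule, after their values were seen. Primase and polymerase alpha subunit genes were lower (POL12 -1.53, PRI2 -1.40), as were DCD1 (-1.79), CDC21 (-1.11) and MRC1 (-0.95). SLD2 (1.37), RFA1 (1.01), the helicase genes MCM5 (0.88) and MCM3 (0.83), RFC3 (0.65), DPB11 (0.64) and RAD27 (0.62) were higher. Of 17 named cell cycle regulators, 12 were lower and 3 were higher (median -0.95). The cyclin genes CLB5 (-1.10), CLN2 (-0.95) and CLN3 (-0.95), the checkpoint genes RAD17 (-1.40), CHK1 (-1.07) and RAD53 (-0.96), PLM2 (-1.09) and the cohesin gene SMC3 (-1.08) were lower. The cohesin loader gene SCC2 (1.56), MOB1 (0.93) and MEC1 (0.76) were higher.

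Of 19 named DNA repair ORFs, 14 were higher and 4 lower, while 1 was not listed (median 0.76). TPP1 (1.91, from 1.97 CPM), DNA2 (1.63), the recombination genes RAD52 (1.23) and RAD57 (0.97) and the nucleotide excision genes RAD14 (1.14) and RAD4 (1.03) were higher. Lower members included the mismatch repair gene MSH6 (-0.61), the exonuclease gene EXO1 (-1.55) and OGG1 (-1.36), which removes oxidised guanine. Transcription and signalling regulators were higher in 22 of 37 named ORFs, lower in 9 and not listed in 6 (median 0.72). The adenylate cyclase gene CYR1 (1.59), the coactivator gene MBF1 (1.48), the meiotic repressor gene UME6 (1.47), YAP1 (1.31), HAP2 (1.30) and YLR278C (1.28) were higher. MSN4, an activator of general stress genes named outside the rule after its value was seen, was at 0.98. ADR1 ZBIST_1388 (-2.36), GCN4, GDS1 (-1.36), HAC1 (-1.02), YRM1 (-0.64), NDD1 (-0.63) and SUM1 (-0.62) were lower, besides IFH1 and ZAP1.

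Vacuolar and autophagy genes were higher in 20 of 22 named ORFs, with 0 lower (median 0.84). The vacuolar protease genes PEP4 (1.35), PRB1 (1.28), APE2 (1.13) and PRC1 (0.87), the autophagy genes ATG9 (1.61), ATG13 (1.20) and ATG2 (1.09), and SNX4 (1.36) and VAC7 (1.31) were among the 10 largest. Genes of membrane traffic were higher in 26 of 32 named ORFs and lower in 5 (median 0.69). The endosomal sorting genes HSE1 (1.41) and VPS27 (0.97), whose products bind ubiquitinated cargo together, the dynamin-like VPS1 (1.14), ERP3 (1.06) and the fusion genes YKT6 (0.98) and SEC18 (0.93) were higher. BET5 (-1.33), MRS6 (-1.15), YOS1 (-1.02), ERD1 (-0.75) and SLY41 (-0.71), most of which act between the endoplasmic reticulum and the Golgi apparatus, were lower.

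Among drug and polyamine transporters and their regulators, 11 of 24 named ORFs were higher and 5 lower, while 8 were not listed (median 0.88). TPO3 (ZBIST_4991), a polyamine exporter that Haa1 activates in S. cerevisiae, fell from 103 to 7.27 CPM (-3.83, FDR 5.72e-08). TPO1 ZBIST_1684, a related exporter, was higher by 0.97. The TPO1 ORFs ZBIST_1685 and ZBIST_3170, listed lower in parental copper at -0.99 and -0.67, were not listed between the strains. All 4 listed ORFs named FLR1, a multidrug exporter, were higher, at 1.81, 1.65, 1.24 and 1.01. The study names a further FLR1 ORF that was not listed. PDR8 was at 1.10, QDR2 at 0.97, RSB1 at -1.33 and PDR16 at -0.97.

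Of 33 ORFs for nitrogen source uptake, 11 were higher and 9 lower, while 13 were not listed (median 0.60). The lower members had the larger differences, with a median of -1.22 against 0.79 for the higher members. HNM1 ZBIST_5053, a choline transporter, fell from 11.5 to 0.587 CPM (-4.29). The allantoate permease gene DAL5 fell from 9.67 to 0.572 CPM (-4.08), AGP3 was at -2.50, the vacuolar transporter gene VBA2 at -2.11 and YCT1 at -1.22. At mutant levels this low the fold change depends on the small count that edgeR adds, and it is no bound. The largest increases were those of the urea amidolyase gene DUR1,2 (1.29) and the amino acid permease gene AGP1 (0.93). The direction of most members of this list turned at stricter thresholds, with 4 higher and 8 lower at an FDR below 0.01, and 1 higher and 7 lower at a fold change above 2.

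Lipid genes were found on both sides. In the synthesis of sterols, fatty acids and sphingolipids, 10 of 16 named ORFs were lower and 5 were higher (median -0.70). The lower members were the desaturase gene OLE1 (-1.01), the elongase genes ELO2 (-1.02) and ELO3 (-0.92), TSC13 (-0.77), the sphingolipid hydroxylase genes SUR2 (-1.28) and SCS7 (-0.74) and late sterol genes. The ceramidase gene YPC1 (1.49), the phosphatidate phosphatase gene PAH1 (1.36), the sterol esterification gene ARE2 (1.07), ERG7 (0.91) and ERG20 (0.59) were higher. Of 14 named ORFs for fatty acid oxidation and peroxisomes, 7 were higher (among them POX1 1.20, PEX15 1.12, PXA2 1.07, FAA1 0.82, FOX2 0.74 and PEX30 0.66) and 2 were lower (POT1 -1.02 and ICL1 -0.97).

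**Figure D4:**
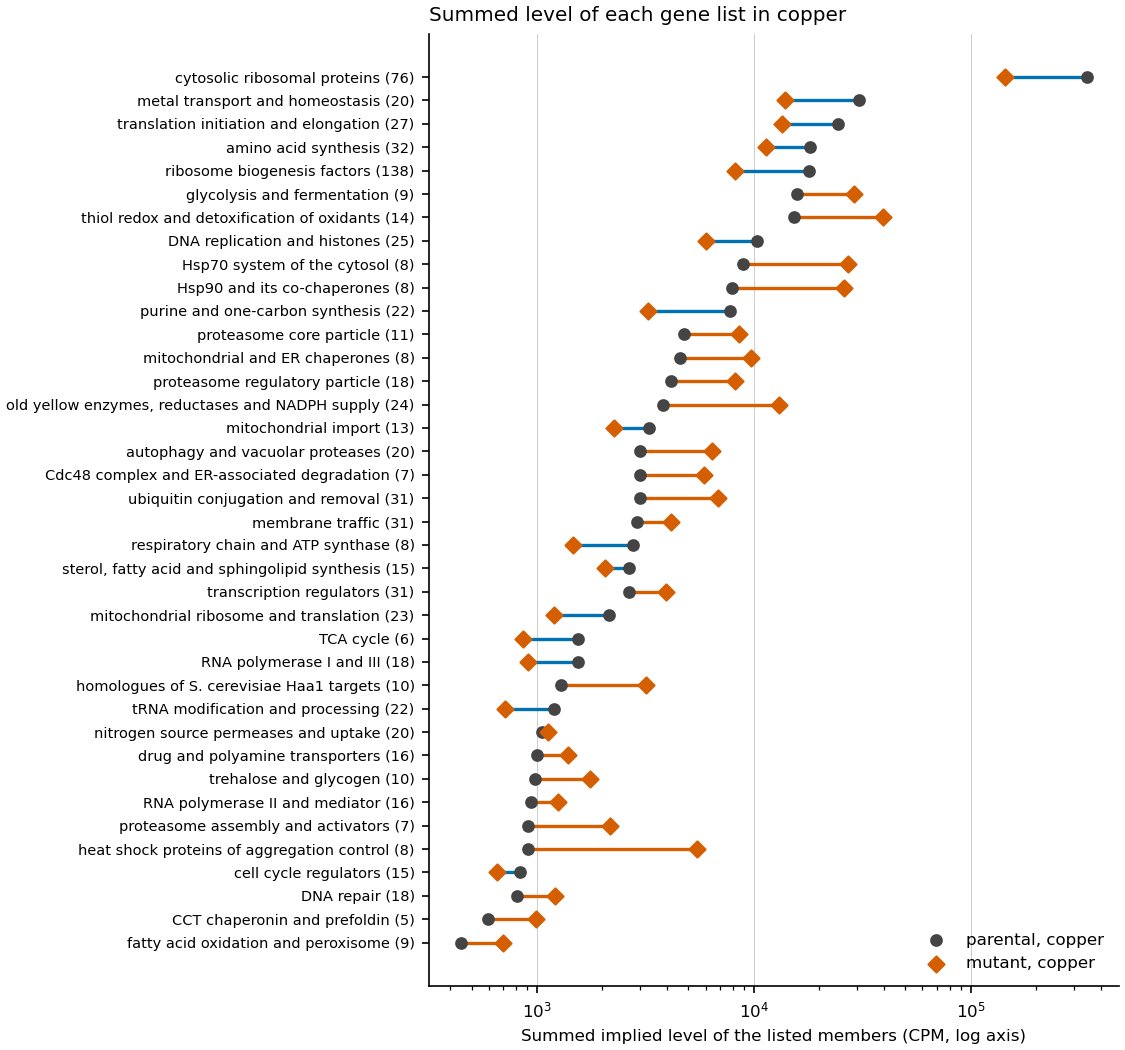
Summed level (CPM, log axis) of the listed members of each list with at least 5 of them, with circles for the parental strain and diamonds for the mutant in copper. Lines join the values of a list. Ribosomal proteins went from 345839 to 143659 CPM, the heat shock proteins from 913 to 5499 CPM, and the nitrogen uptake list differed least, at 1056 and 1128 CPM.

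The summed levels showed which lists carried most mRNA. The 8 heat shock proteins had the largest ratio, with 5499 CPM in the mutant against 913 CPM in the parental strain, 6.02-fold. The Hsp70 system went from 8923 to 27150 CPM and the Hsp90 system from 7950 to 26143 CPM, and SSA1 and HSP82 (5525 CPM in the parental strain and 18491 CPM in the mutant) held most of these sums. For thiol redox genes the sum went from 15418 to 39476 CPM, most of it from AHP1. The metal list fell from 30673 to 13917 CPM although more of its members were higher, and CRS5 alone held most of the parental sum. These sums cover listed members only and share the scaled total of each library.

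Homologues of S. cerevisiae Haa1 target genes did not share a direction. Of 12 named ORFs, 7 were higher and 3 lower, while 2 were not listed. The lower ones were TPO3, ADH3 and YRO2 (-1.24), a plasma membrane protein gene. The higher ones were the HSP26 ORFs, HSP42, HSP78, HSP104 and HSP30 (1.65), all of which are also heat shock genes. YGP1, encoding a cell wall glycoprotein, was lower in the mutant in unstressed cells (-1.16) and in acetic acid (-2.46), and was not listed in copper.

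The mutant and the parental strain differed in far fewer genes without copper. The unstressed comparison listed 14 genes, 0.272% of the annotated ORFs, and the acetic acid comparison 56, 1.09% of them. Neither shares a library with the copper comparison. By the study's methods, the flasks of a strain for all conditions were started from its growing culture. The deletion line was the same too, so these comparisons are not independent. Of the 14 unstressed genes, 9 (64.3%) were also listed in copper, 0.692% of the copper list, 8 in the same direction and 1 in the opposite one. Of the 56 acid genes, 30 (53.6%) were also listed in copper, 2.31% of the copper list, with 17 in the same direction and 13 in opposite directions. Of all annotated ORFs, 25.3% were on the copper list, and the overlaps were not tested against this share. Whether a strain difference changed between conditions was not tested here.

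The 13 genes with opposite directions were lower in the mutant in acetic acid and higher in copper, and 7 of them were heat shock genes. SSA3 was at -1.24 in acid and 4.50 in copper, HSP42 at -1.22 and 3.83, HSP104 at -1.14 and 3.40, HSP78 at -0.87 and 3.12, and HSP30 at -1.16 and 1.65. HSP26 was at -3.26 and 4.54 for ZBIST_3442, and at -2.87 and 2.63 for ZBIST_0079. Parental SSA3 had 6.75 log2 CPM in acid and 6.99 in copper, and mutant SSA3 had 5.51 and 11.49. For HSP104 the parental levels were 7.32 and 7.04 and the mutant levels 6.18 and 10.44, so for both genes the parental levels lay much closer together than the mutant ones. The glycolytic genes PGK1 (-0.61 and 1.26), TPI1 (-1.08 and 0.96) and GPM1 (-0.67 and 0.68), YHR138C (-0.92 and 1.20), and the unnamed ZBIST_5024 (-1.17 and 2.13) and ZBIST_2390 (-0.83 and 1.63) were the others. In the unstressed comparison the gene of opposite direction was ZBIST_2787, at -1.55 unstressed and 1.32 in copper.

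A set of 7 genes was listed in all of these comparisons, each in 1 direction. GCN4 stood at -1.85 unstressed, -2.09 in acetic acid and -1.67 in copper, RSB1 at -1.29, -2.48 and -1.33, and ARR3 at -1.31, -2.33 and -1.33. YJL218W, a putative acetyltransferase gene, stood at -1.09, -0.65 and -2.49. The unnamed ZBIST_5037 (-1.58, -1.17 and -3.28) and ZBIST_5080 (-4.98, -7.99 and -4.26) were lower throughout, the latter from a parental level of 5.26 CPM in copper. ZBIST_0204, unnamed, was higher throughout, at 1.02, 1.48 and 1.91. Also lower in both acid and copper were HNM1 ZBIST_5053 (-2.47 and -4.29), the formate dehydrogenase gene FDH1 (-1.65 and -1.92), GOR1 (-0.93 and -1.33), YRO2 (-0.81 and -1.24), MSK1 (-0.67 and -1.23), ICL1 (-1.40 and -0.97), MDH1 (-0.84 and -0.95), GRE2 (-1.26 and -0.89), GIS4 (-0.76 and -0.60) and ZBIST_3873 (-1.54 and -0.60). The unnamed ZBIST_4636 was higher in unstressed cells (1.01) and in copper (1.40).

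**Figure D5:**
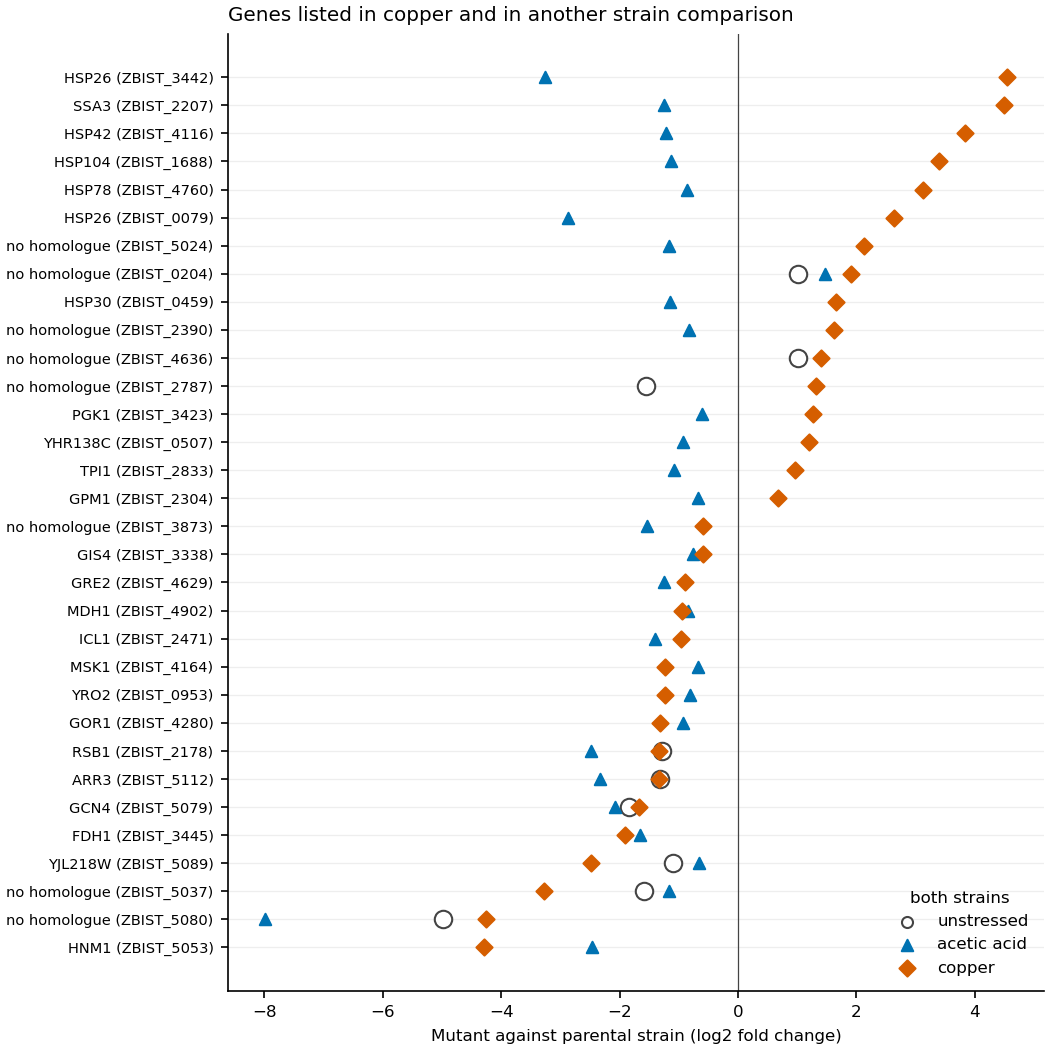
Log2 fold change of the mutant against the parental strain for the genes listed in copper that were also listed in unstressed cells (open circles) or in acetic acid (triangles), with copper as diamonds. A missing symbol means that the gene was not listed there. Heat shock genes at the top, such as SSA3 at 4.50 in copper and -1.24 in acetic acid, have symbols on both sides of 0, while GCN4, RSB1 and ARR3 have all symbols below it.

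Several homologue names were carried by more than 1 listed ORF. Of 27 such names, 21 had all listed ORFs in the same direction. Among them were the 5 ORFs named YPL088W, an aryl alcohol dehydrogenase (0.71 to 1.51), and 3 named ATG18 (0.63 to 0.77). The other 6 names had ORFs in opposite directions. ADR1, an activator of glucose-repressed genes, had ZBIST_1388 at -2.36 (FDR 3.27e-06) and ZBIST_1119 at 1.71 (FDR 8.49e-05), so that their levels crossed. In the parental strain they stood at 6.59 and 3.92 log2 CPM, and in the mutant at 4.23 and 5.63. LEU4, encoding the first enzyme of leucine synthesis, had ZBIST_2892 at -1.43 and ZBIST_2299 at 0.71. FRE3 had ZBIST_2107 at 1.32 and ZBIST_4165 at -0.70, and the drug transporter PDR15 had ZBIST_4875 at 1.06 and ZBIST_4873 at -0.80. MNR2 had ZBIST_4792 at 0.72 and ZBIST_1049 at -0.73, and RET1 had ZBIST_4878 at 0.72 and ZBIST_4480 at -0.67. How alike these ORFs are in sequence, and whether reads could be split between them, was not tested.

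No homologue was named for 234 listed ORFs, of which 141 were higher and 93 were lower, a larger share of the higher list. The largest difference of the table in either direction was an unnamed ORF. ZBIST_3609 fell by 5.97 on the log2 scale, from 4.70 to 0.075 CPM, and ZBIST_2394 rose by 4.74, from 0.786 to 20.9 CPM. Both had 1 strain near or below the authors' minimum of 1 CPM, so these sizes depend on the added count. Unnamed ORFs with high levels in both strains were ZBIST_1918, which rose from 333 to 2119 CPM (2.67), ZBIST_2864, from 636 to 2831 CPM (2.15), and ZBIST_1117, from 60.1 to 453 CPM (2.91, FDR 5.72e-08). ZBIST_1232 (2.44), ZBIST_0817 (2.18), ZBIST_5024 (2.13) and ZBIST_2242 (2.09) were the other large increases. Large decreases were found for ZBIST_1696, from 274 to 32.2 CPM (-3.09), and, at parental levels below 30 CPM, for ZBIST_5037 (-3.28), ZBIST_5025 (-3.24), ZBIST_1597 (-2.55), ZBIST_0771 (-2.39) and ZBIST_2523 (-2.38). Among named genes outside the lists, the acid phosphatase gene PHO3 fell from 15.7 to 1.32 CPM (-3.57), INP1 from 5.37 to 1.18 CPM (-2.18), and MUM2 rose from 6.48 to 26.5 CPM (2.03).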

How the data were processed

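Yeast mRNA was sequenced from the 3′ end with QuantSeq. The authors used STAR 2.5.2a for alignment and HTSeq for gene counts, retained genes with at least 1 CPM in at least 3 samples of a condition, scaled by TMM and compared groups with edgeR. The deposited tables hold their log2 fold change and average log2 CPM, in log2 units, and the authors' FDR, an adjusted p-value, for the rows past an FDR limit of 0.05 and a 1.5-fold change. The request for this comparison asked for these rows, so they are described as deposited and no new test was run. Counts per library were not analysed here, so depth and replicate error are not given. The levels of both strains were computed from the fold change and the average, taken as the log2 of the mean CPM over both groups with equal weight, and this step was tested on simulated data. Genome sequence was not used. The reference annotation of strain IST302 gave the order of ORFs along each contig, the number of ORFs per contig and coding lengths, with 1298 of 1301 ORFs found. The number of genes tested was not used, so shares are of 5141 annotated protein-coding ORFs. No column of sample values was left out.

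The members and the 39 gene lists, which come from general knowledge of S. cerevisiae without a database release, were chosen with earlier results of these data known. The genes named were the 15 largest changes with a homologue and the 8 largest without one in each direction, for each list up to 10 members by size, all members against the main direction and all where 12 or fewer were listed. Further genes named were those lower here and higher in parental copper, those in another strain comparison, ORFs of 1 name in opposite directions, and ZbHAA1 with its neighbours. Some genes that this rule names are not reported here. Names follow the supplementary tables, and that of CRS5 the text of the study. An FDR below 0.01, a fold change above 2, an average of at least 4 log2 CPM and another reading of the average were tried. Python 3.11.15, numpy 2.4.6, pandas 2.3.3 and matplotlib 3.10.9 were used.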

Additional observations from a re-analysis of the deposited data

How the results depend on the processing

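With an FDR below 0.01, 383 higher and 418 lower genes remained, with median log2 fold changes of 1.09 and -1.18. A fold change above 2 left 267 and 339, with medians of 1.28 and -1.33. An average of at least 4 log2 CPM left 621 and 582, and moved both medians by less than the other settings. These settings drop rows by construction. Of 78 counts of list members, 34 moved by more than 1.5 times with the stricter FDR, 50 with the larger fold change and 2 with the level minimum. The 78 include counts that were 0 as deposited and could not move, so the shares that moved are understated. The direction of most members turned in 1 list, nitrogen uptake, with the stricter FDR, in 2, nitrogen uptake and metals, with the larger fold change, and in 0 with the level minimum. Other lists lost their majority without turning. With the stricter FDR, metals stood at 6 higher and 6 lower, and sterol, fatty acid and sphingolipid synthesis at 4 and 4. With the larger fold change, the last list and membrane traffic each stood at 3 and 3, and mitochondrial import at 1 and 1. The CCT and prefoldin list kept 0 members there. Reading the average as the mean of both log2 levels shifted the parental levels by a median of 0.08 and at most 2.01 on the log2 scale. The levels of genes with large changes moved most, in both strains alike and without a change in fold, from 6.99 and 11.49 to 8.30 and 12.80 log2 CPM for SSA3 and from 5.57 and 9.40 to 6.58 and 10.41 for HSP42 (parental strain, mutant). In a check added after the data were seen, the parental copper levels from both copper tables differed over 105 genes with an SD of 0.34 under this reading and of 0.03 under the one used. No paired analysis was possible because the tables hold no values per library, which also kept single replicates from being left out.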

Other observations

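Listed genes often lay next to each other on the contigs of the reference annotation. Of 662 higher genes found there, 213 (32.2%) had a higher gene as a direct neighbour, while 23.9% of all annotated ORFs had one. Of 636 lower genes, 243 (38.2%) had a lower neighbour, against 22.7% of all ORFs. The longest stretches held 5 lower genes each. In the first, from ZBIST_0152 to ZBIST_0156, MOT1, LYS21, RPS9A, RPL21A and RIM2 were next to each other, and in the second, from ZBIST_0340 to ZBIST_0344, the ribosomal protein genes RPP1A, RPL13A and RPS16A were followed by an unnamed ORF and SUB2. CRS5, ZBIST_3714 and MRL1 formed a stretch of 3 lower genes. ZbHAA1 had 0 listed genes among its 5 nearest ORFs on either side. Overlap of neighbouring transcripts was not tested, and no test of these shares was run.

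The genes lower by over 4-fold were also found often on contigs with few ORFs, a pattern noticed after the values were seen. Of 30 such genes in the annotation, 8 (26.7%) lay on contigs with fewer than 20 ORFs, which hold 135 of the 5141 ORFs (2.63%). They were HNM1 ZBIST_5053, ZBIST_5080, DAL5, TPO3, ZBIST_5025, YJL218W, FIT2 and INP1, on 7 contigs. Of all lower genes 2.36% lay on such contigs, and of the 24 genes higher by over 4-fold, 0 did. INP1, GCN4 and ZBIST_5080 are neighbours at the end of a contig of 10 ORFs, and GCN4 and ZBIST_5080 were lower in the mutant in unstressed and acid-treated cells as well. The median coding length was 1349 bases for the higher genes, 1103 for the lower genes and 1209 for all annotated ORFs.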
